A study of Mus musculus with 20 samples.

Results

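The enzymes of heme synthesis and heme breakdown were measured in blood of 4 female C57Bl/6 mice, numbered 305, 310, 315 and 320. The mice were bled at day 0, ahead of the injection of Hepa1-6 cells under the skin, and at days 10, 15, 20 and 25 after it. Hepa1-6 is a mouse hepatoma line. The 9 genes were Alas2, Alad, Uros, Urod, Cpox, Ppox, Fech, Blvrb and Hmox1, and every probe of the arrays that carried one of these names and was no control was taken. This gave 10 probes, 2 of them for Fech, out of 41174 probes that were no controls, which carried 27845 distinct names. Each of the 20 arrays held 1 mouse sample in Cy5 and, in Cy3, a common reference of untreated C57Bl/6 blood RNA. A log2(Cy5/Cy3) above 0 therefore means more signal from the mouse sample, and dyes were not swapped. The labels give no age. Their tissue entry names Hepa1-6 cells on all 20 arrays, day 0 included. Blood of mice without tumour cells at the later days was not analysed here, and every day had a slide of its own. Day after inoculation, tumour and slide cannot be told apart.

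Heme, the iron porphyrin of haemoglobin, is assembled in a chain of enzymes that starts and ends in mitochondria and runs through the cytosol between. Alas2, the erythroid 5-aminolevulinate synthase, carries out the first step. Alad condenses aminolevulinate to porphobilinogen, Uros closes the ring to uroporphyrinogen III, and Urod, Cpox and Ppox trim and oxidise it to protoporphyrin. Fech, ferrochelatase, inserts the iron. Hmox1, the inducible heme oxygenase, opens the heme ring to biliverdin, which biliverdin reductases reduce to bilirubin. Blvrb is the biliverdin and flavin reductase that red cells hold in large amounts. In blood, reticulocytes, the youngest red cells, still carry RNA for these enzymes.

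The stretch ahead of the transcription start is shown for the synthesis enzymes in which it holds a GATA motif, since GATA1 binds such motifs in erythroid genes. Sequences were matched by symbol in RefSeq (build GRCm38.p6), which gave 10 windows for 7 of the 9 members and none for Fech and Hmox1. The 250 bases before each start were searched on both strands for GATA motifs with the letters AGATAA, or else the letters AGATAG, or else the letters TGATAA, or else the letters TGATAG. They were searched likewise for the CACCC box, with the letters CCACACCC or the wider form CCNCACCC that includes it, and for the antioxidant response element, with the letters TGACNNNGC. Capitals mark GATA and CACCC matches, and all stretches read 5′ to 3′ on the strand of the gene. Alas2 is at chrX:150547167-150547416 on the plus strand, Uros, with the second of its starts, at chr7:133702501-133702750 on the minus strand, and Cpox at chr16:58669958-58670207 on the plus strand.
Alas2: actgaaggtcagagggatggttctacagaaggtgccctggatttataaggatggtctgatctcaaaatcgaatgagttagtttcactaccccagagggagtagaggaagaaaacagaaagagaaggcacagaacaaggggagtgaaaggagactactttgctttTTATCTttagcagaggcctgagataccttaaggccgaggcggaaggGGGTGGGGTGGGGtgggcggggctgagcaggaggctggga
Uros: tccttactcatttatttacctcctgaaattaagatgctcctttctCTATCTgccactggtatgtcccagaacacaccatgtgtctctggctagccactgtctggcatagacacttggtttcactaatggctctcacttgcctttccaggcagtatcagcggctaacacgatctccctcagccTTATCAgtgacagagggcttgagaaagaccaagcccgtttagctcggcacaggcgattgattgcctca
Cpox: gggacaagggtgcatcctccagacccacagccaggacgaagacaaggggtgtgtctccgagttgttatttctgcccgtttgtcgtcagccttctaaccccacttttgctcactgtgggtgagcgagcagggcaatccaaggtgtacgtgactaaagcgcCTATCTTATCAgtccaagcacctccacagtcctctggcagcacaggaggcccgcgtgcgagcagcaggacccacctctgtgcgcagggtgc

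The single GATA match of Alas2 began 86 bases ahead of the start, those of Uros began 205 and 68 bases ahead, and the overlapping pair of Cpox began 91 and 86 bases ahead. Blvrb had 1 GATA match, 196 bases ahead of its second start, and the windows of Alad, Urod and Ppox and the first windows of Uros and Blvrb held none. In all, 4 of 10 member windows held a GATA match, against 26.5% of 32851 windows of all genes in the table. The CACCC box was found only in Alas2 among the member windows, against 14.9% of all windows. The antioxidant response element was in 0 of 10 member windows, against 10.2% of all windows. These matches describe letters and do not show binding, and their part in the changes of the enzymes was not tested.

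Between 38.1% and 52.2% of the spots other than controls were well above background in Cy5 on each array. Blood cell markers were measurable: of the genes named on the array, 23 of 23 erythroid, 9 of 9 neutrophil, 8 of 10 monocyte and macrophage, 6 of 6 B cell, 7 of 8 T cell and 4 of 4 platelet markers were kept for testing, with Cd4 among those that were not. Of the 10 member probes 9 were kept. The probe of Alas2 was dropped because its Cy3 spot was marked non-uniform on all 4 arrays of day 0, and its values with those spots are given separately. Changes are differences in log2(Cy5/Cy3) from a limma fit over all 20 arrays, with Benjamini-Hochberg adjustment over 20920 probes and a threshold of 0.05, and n = 4 mice a day. The main background correction, normexp, left a large and uneven signal on empty spots: the 10th percentile of Cy5 after it was between 11.4 and 737 on the 20 arrays, against 0.377 to 34.4 with the local background subtracted. Uros lay below that remainder in Cy5 on 12 arrays, Hmox1 on 10, Alad on 9 and Cpox on 6, which narrows their ratios. Alas2, Urod, Fech and Blvrb did so on none. Values with the background subtracted are therefore set beside the main ones.

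At day 25 the enzymes of heme synthesis and Blvrb were lower in blood than at day 10. Of the 9 member probes tested, 8 were lower, 0 were higher and 1, Hmox1, did not pass the threshold, where 13.8% of all 20920 probes were lower and 17.7% higher. The median change of the member probes was -0.86, against 0.032 over all probes. In each of the 8 all day 25 values lay below all those of day 10, as they did in 11.6% of all probes. The 8 calls remained without any 1 array, with the mouse as a block, where 14.4% of all probes were lower, and with the background subtracted, where 19.0% were. They depended on how the arrays were normalized. With every array centred on its E1A spike-in probes 0 of 9 were lower in limma, adjusted or not, and 3, Alad, Uros and Hmox1, were higher, where 0.411% of all probes were lower and 95.7% higher. With the median of each array in place of loess 0 of 9 passed in limma, adjusted or not, where 0.889% of all probes were lower, and with scaling between arrays 2 of 9 were lower, where 11.1% of all probes were. The E1A centring and the array medians moved the median of all probes too, to 1.10 and 0.39, where the member median was 0.21 and 0.076. With scaling between arrays the median of all probes was 0.016 and that of the members -0.83.

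**Figure D1:**
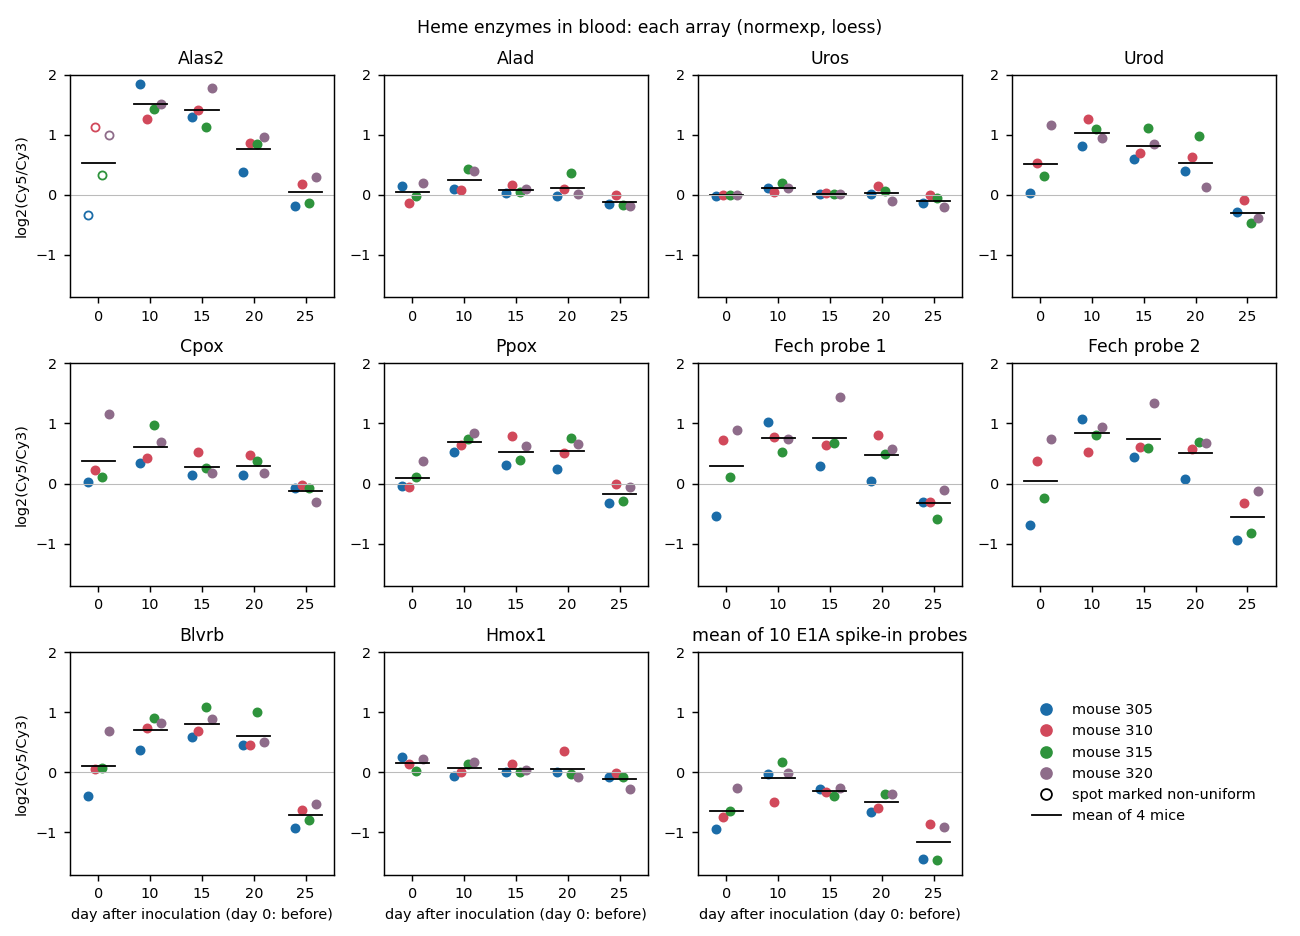
Log2(Cy5/Cy3) of each of the 10 member probes, and the mean of the 10 E1A spike-in probes, on every array, by day, with points for mice and a bar for the mean of 4. Day 25 values lie below day 10 values in all panels but that of Hmox1, where the groups overlap, and the spike-in panel shows the same drop. Open circles are Alas2 spots marked non-uniform.

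The spike-in probes moved with the enzymes. The arrays carry 10 control probes for adenovirus E1A sequences, each on 32 spots, which hold no blood RNA. Whether spike RNA was added in equal amounts is not stated in the labels. Their mean log2(Cy5/Cy3) was -0.65 ± 0.29 at day 0, -0.093 ± 0.28 at day 10, -0.31 ± 0.056 at day 15, -0.49 ± 0.16 at day 20 and -1.16 ± 0.33 at day 25 (SD, n = 4 arrays). Day 25 was thus 1.07 lower than day 10, lower by 0.84 to 1.20 in the single probes and in 10 of 10 of them. Over the 20 arrays the spike-in mean correlated with the mean of the 6 kept synthesis genes at r = 0.90, with Blvrb at 0.87 and with Hmox1 at 0.29, as a description of arrays that share slides. The part of the spike-in shift in the changes of the enzymes was not tested.

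Alas2, the first enzyme of the chain, had marked or saturated spots on all arrays of day 0. Its Cy5 spot was saturated in mice 315 and 320 at day 0, and its Cy5 signal over local background was 421043 to 558642 at day 0, 376775 to 486338 at day 10, 325394 to 363372 at day 15, 213430 to 376131 at day 20 and 292663 to 330789 at day 25. The Cy3 signal of the same spots was 54756 to 106712 at day 0, 66028 to 85495 at day 10 and 61902 to 94524 at day 15. It was 84068.5 to 122840 at day 20 and 99663 to 111770 at day 25, so the reference signal at day 25 lay above that of day 10 without overlap. With the marked spots kept, and in the order of mice 305, 310, 315 and 320, the log2 ratios of Alas2 were -0.33, 1.13, 0.33 and 0.99 at day 0, 1.84, 1.26, 1.43 and 1.52 at day 10, 1.29, 1.41, 1.13 and 1.78 at day 15, 0.38, 0.86, 0.84 and 0.97 at day 20 and -0.18, 0.18, -0.14 and 0.30 at day 25. Mouse 305 was lowest at day 0 and highest at day 10, and the values of days 10 and 15 lay above all those of days 0 and 25. Alas2 averaged 0.040 ± 0.24 at day 25, against 1.51 ± 0.24 at day 10 (SD, n = 4), a change of -1.47 (SE 0.24, limma adjusted p = 4.13e-04). Its average was above that of day 0 by 0.98 at day 10 and by 0.87 at day 15 (limma adjusted p = 0.0168 and 0.0413). These 2 differences are not exact, since a saturated spot gives only a lower bound of its signal, which makes a day 0 ratio too low, and since all day 0 spots were marked. With marked spots kept, 13.5% of all probes were lower at day 25 than at day 10, 3.99% were higher at day 10 than at day 0 and 2.04% at day 15. In the scanner software's own ratio, which starts from a detrended signal, none of the 5 comparisons of Alas2 passed and the day 10 difference was 0.081 (adjusted p = 0.715). For day 25 against day 10 that ratio differed by -0.40 (limma adjusted p = 0.0507), and with the E1A centring the difference was -0.40 (0.0515). With array medians in place of loess its difference from day 0 turned to -0.65 at day 10 and -0.68 at day 15 (limma adjusted p = 0.257 and 0.289), where the median of all probes was -0.40 and -0.29.

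**Figure D2:**
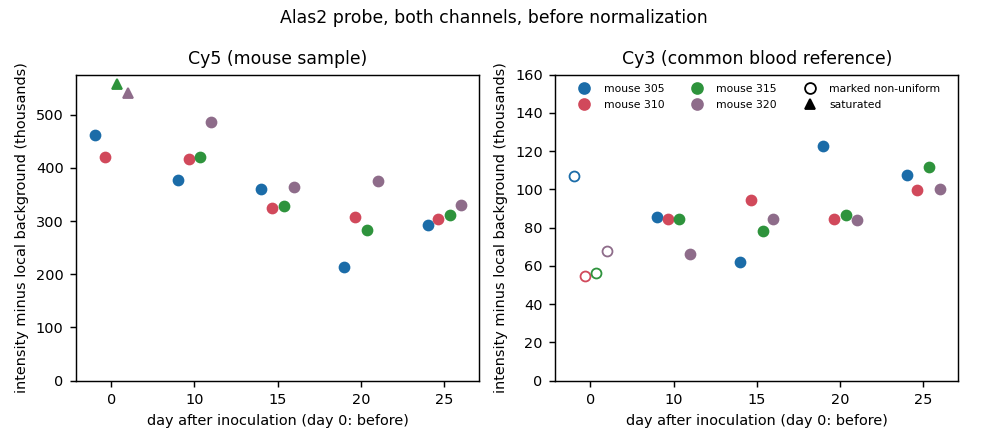
Intensity of the Alas2 probe minus local background, on linear axes from 0, in Cy5 (left) and Cy3 (right) on each array by day, with open circles for Cy3 spots marked non-uniform and triangles for saturated Cy5 spots. The marked and saturated spots all belong to day 0, and Cy3 of the common reference was between 54756 and 122840.

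The cytosolic steps after Alas2 differed in size. Urod, uroporphyrinogen decarboxylase, had log2 ratios of 0.033, 0.53, 0.31 and 1.15 at day 0, 0.81, 1.26, 1.09 and 0.94 at day 10, 0.59, 0.70, 1.11 and 0.85 at day 15, 0.40, 0.64, 0.97 and 0.13 at day 20 and -0.29, -0.092, -0.47 and -0.38 at day 25. Every day 25 value was below 0 and below every value of day 0, and mouse 320 stood apart at day 0. Urod averaged -0.31 ± 0.16 at day 25, against 1.03 ± 0.20 at day 10 (SD, n = 4), which is 0.40 times the day 10 ratio (log2 change -1.33, SE 0.20, limma adjusted p = 1.91e-04). Alad, aminolevulinate dehydratase, was at -0.13 ± 0.083 at day 25, against 0.25 ± 0.19 at day 10, and Uros, uroporphyrinogen III synthase, at -0.10 ± 0.089 against 0.11 ± 0.063. Their changes, -0.37 and -0.21, passed (limma adjusted p = 0.00706 and 0.00463) and were larger with the background subtracted, at -0.53 and -0.45. Uros was well above background in Cy5 on 19 arrays and in Cy3 on 15. Its net Cy5 signal was 27.5 to 53.0 at day 25, against 56.0 to 68.8 at day 10, and its net Cy3 signal 36.5 to 39.8 against 26.8 to 35.7. The main ratios of Uros spanned only -0.21 to 0.19 over the 20 arrays. Centred on the E1A probes, Alad and Uros were higher at day 25 than at day 10, by 0.70 and 0.86 (limma adjusted p = 4.35e-04 and 2.28e-05). In that setting 95.7% of all probes were higher, with a median of 1.10 over all probes.

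The mitochondrial steps ended in the same direction. Cpox, coproporphyrinogen oxidase, averaged -0.12 ± 0.13 at day 25, against 0.61 ± 0.28 at day 10 (SD, n = 4), a log2 change of -0.73 (limma adjusted p = 0.00808) and of -1.09 with the background subtracted. Its day 0 values were 0.025, 0.22, 0.11 and 1.16, with mouse 320 far above the other mice. Ppox, protoporphyrinogen oxidase, had ratios of -0.038, -0.050, 0.11 and 0.38 at day 0, 0.52, 0.64, 0.74 and 0.85 at day 10, 0.30, 0.79, 0.38 and 0.63 at day 15, 0.25, 0.50, 0.75 and 0.67 at day 20 and -0.32, -0.0020, -0.29 and -0.059 at day 25. Its day 25 values were all below 0, its day 10 values all above those of day 0. Ppox at day 25 was 0.55 times day 10 (log2 change -0.86, SE 0.13, limma adjusted p = 1.82e-04). Fech was read by 2 probes, which correlated at r = 0.94 over the 20 arrays. Its second probe had ratios of -0.69, 0.37, -0.24 and 0.74 at day 0, 1.08, 0.52, 0.81 and 0.95 at day 10, 0.44, 0.61, 0.59 and 1.35 at day 15, 0.070, 0.57, 0.69 and 0.67 at day 20 and -0.94, -0.32, -0.83 and -0.13 at day 25. Mouse 305 was lowest on days 0, 15, 20 and 25 and highest on day 10. The change from day 10 to day 25 was -1.39 (SE 0.27, limma adjusted p = 0.00107) in the second Fech probe and -1.09 (SE 0.26, adjusted p = 0.00483) in the first. In the scanner software's ratio the first probe changed by -0.34 and did not pass (limma adjusted p = 0.158), while the second passed at -0.77.

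On the side of breakdown the pair of enzymes differed in pattern. Blvrb, biliverdin reductase B, had ratios of -0.40, 0.059, 0.078 and 0.68 at day 0, 0.37, 0.75, 0.90 and 0.82 at day 10, 0.59, 0.68, 1.08 and 0.88 at day 15, 0.45, 0.46, 1.01 and 0.50 at day 20 and -0.92, -0.62, -0.79 and -0.53 at day 25. All 4 day 25 values lay below every value of the other days, and the values of days 10 and 15 overlapped those of day 0 only through mouse 320. Blvrb averaged -0.72 ± 0.17 at day 25, against 0.71 ± 0.23 at day 10 (SD, n = 4), or 0.37 times the day 10 ratio (log2 change -1.43, SE 0.18, limma adjusted p = 8.25e-05), the smallest adjusted p of the 9 member probes tested in that comparison. Hmox1, which is induced by heme, had ratios of 0.25, 0.13, 0.014 and 0.22 at day 0, -0.055, 0.0073, 0.14 and 0.17 at day 10, 0.0044, 0.14, 0.012 and 0.040 at day 15, 0.0011, 0.35, -0.028 and -0.083 at day 20 and -0.075, -0.0055, -0.071 and -0.28 at day 25. The Hmox1 ratios ran from -0.28 to 0.35 over the 20 arrays, and of the 5 comparisons day 25 against day 0 was the one without overlap. Hmox1 averaged -0.11 ± 0.12 at day 25, against 0.16 ± 0.11 at day 0 (SD, n = 4), a log2 change of -0.26 that did not pass (limma adjusted p = 0.138) but reached -0.42 and passed with the background subtracted (0.0249). That call was lost without mouse 320 at day 0 or without mouse 305 or 320 at day 25. Between day 10 and day 25 Hmox1 changed by -0.17 (adjusted p = 0.131), and whether this differed from the change of Blvrb was not tested. A further probe, described as heme oxygenase 1 under a transcript cluster name, was well above background on 0 of 20 arrays.

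At day 10 some enzymes were higher than at day 0. Blvrb was higher by 0.60 (SE 0.18, limma adjusted p = 0.0419) and Ppox by 0.59 (SE 0.13, adjusted p = 0.00750), each in 4 of 4 mice, and these were 2 of 9 member probes, where 4.08% of all probes were higher. The median member change was 0.47, against -0.023 over all probes. With the background subtracted 6 of 9 were higher, where 14.7% of all probes were, namely Alad (0.35), Uros (0.37), Urod (0.57), Ppox (0.79), the second Fech probe (0.60) and Blvrb (0.63). With the mouse as a block the second Fech probe also passed, where 6.08% of all probes were higher (0.79, limma adjusted p = 0.0151). The E1A mean was 0.55 higher at day 10 than at day 0, in 4 of 4 mice. The call of Blvrb was lost without mouse 305, 310 or 315 of day 0, without mouse 310, 315 or 320 of day 10 or without mouse 320 of day 15 (highest limma adjusted p = 0.174), and that of Ppox stayed without any 1 array. Without mouse 320 at day 0, 5 of 9 were higher, where 5.73% of all probes were. The 6 of the subtracted values fell to 3 without mouse 305, 310 or 315 of day 0 or mouse 315 of day 10, where 11.7%, 12.7%, 12.5% and 12.8% of all probes were higher. With the background subtracted and the median of each array in place of loess the direction turned, and 8 of 9 were lower at day 10 than at day 0, where 71.4% of all probes were. With array medians alone Blvrb was at -0.93 and Ppox at -0.59 (limma adjusted p = 0.129 and 0.210), where the median of all probes was -0.39. With the E1A centring Blvrb was at 0.049 and Ppox at 0.033 (limma adjusted p = 0.810 and 0.867), and 0 of 9 were higher and 2 lower, Uros at -0.43 and Hmox1 at -0.64, where 86.4% of all probes were lower and the median of all probes was -0.58.

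At day 15 Blvrb was the only member probe called in the main values, higher by 0.71 (SE 0.18, limma adjusted p = 0.0275) in 4 of 4 mice, where 2.03% of all probes were higher. The call was lost without mouse 305, 310 or 315 of day 0 or mouse 315 or 320 of day 15, with a highest adjusted p of 0.124. With the mouse as a block 3 of 9 were higher, where 2.80% of all probes were: Blvrb, Ppox (0.43, limma adjusted p = 0.00936) and the second Fech probe (0.70, adjusted p = 0.0444). With the background subtracted Ppox was at 1.03, 1.01, 1.41 and 1.12 at day 15, against -0.14, 0.037, 0.12 and 0.41 at day 0, with no overlap, a change of 1.03 (limma adjusted p = 7.98e-06). Then 4 of 9 were higher, where 16.5% of all probes were, the others being Alad, the second Fech probe and Blvrb. The E1A mean was 0.33 higher at day 15 than at day 0, in 3 of 4 mice, and 0.51 higher with the background subtracted. The call of Blvrb at day 15 depended on the normalization, as with the E1A centring it was at 0.37 and did not pass (limma adjusted p = 0.150), and with array medians it was at -0.71 (0.296). Background subtraction together with array medians put it at -1.12, with 8 of 9 lower, where 70.7% of all probes were. With scaling between arrays 6 of 9 were higher, where 29.2% of all probes passed in either direction.

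At day 20 none of the 9 member probes passed against day 0 in limma, where 0.918% of all probes were higher and 1.98% lower, with 1 member, Ppox, higher in the subtracted values, where 4.68% of all probes were (0.47, limma adjusted p = 0.0143). With the mouse as a block 2 were higher, where 7.28% of all probes passed in either direction, Ppox at 0.44 (limma adjusted p = 0.0141) and Blvrb at 0.50 (0.0382). At an unadjusted p under 0.05, Ppox and Blvrb, 2 of 9, were higher in the main values, where 9.75% of all probes were. The member median was 0.064.

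At day 25 all 9 member probes averaged below day 0, by 0.092 to 0.82, and none passed in limma, where 0.110% of all probes were lower and 0.0382% higher. At an unadjusted p under 0.05, 7 of 9 were lower in the main values, all but Alad and Uros, where 9.81% of all probes were. In Urod, Cpox, Blvrb and Hmox1, 4 of 9, all day 25 values lay below all those of day 0, as they did in 3.81% of all probes. With the mouse as a block 2 were lower, where 1.07% of all probes were, Blvrb at -0.82 (limma adjusted p = 0.0108) and Urod at -0.81 (0.0495). With the background subtracted 3 were lower, where 3.15% of all probes were: Blvrb at -0.85, Urod at -0.85 and Hmox1 at -0.42. None of these 3 calls remained without mouse 320 of day 0 or mouse 305 of day 25, and without mouse 305 of day 0 6 of 9 were lower, where 5.47% of all probes were. Centred on the E1A probes Uros was higher at day 25 than at day 0, by 0.42 (limma adjusted p = 0.0394). In that setting 17285 of 20920 probes were higher, with a median of 0.51 over all probes. The E1A mean was 0.52 lower at day 25 than at day 0, in 4 of 4 mice. All 4 comparisons with day 0 share the same day 0 arrays, on which mouse 305 was lowest and mouse 320 highest in Urod, Cpox, Fech and Blvrb.

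**Figure D3:**
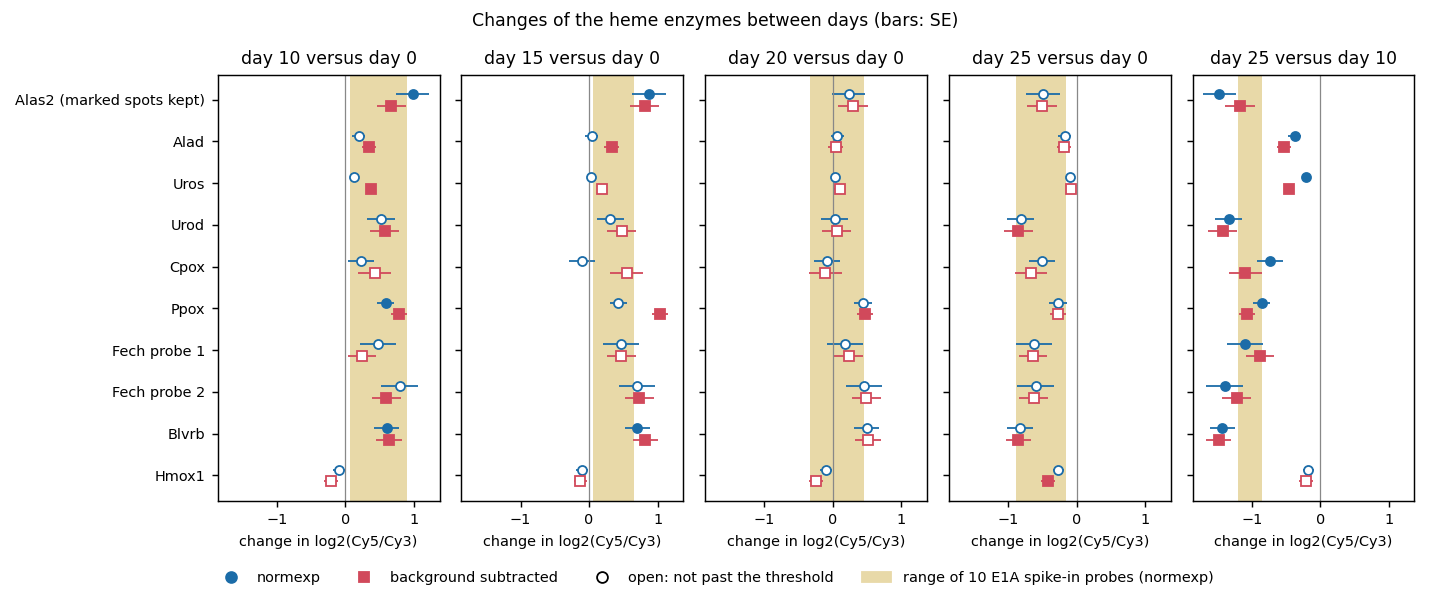
Change in log2(Cy5/Cy3) of each member probe in the 5 comparisons, with SE bars, for normexp (circles) and for background subtracted values (squares), filled where the limma adjusted p was under 0.05. The shaded band is the range of the 10 E1A spike-in probes under normexp, which lies above 0 at days 10 and 15 and below 0 in both comparisons of day 25.

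Tested over all 4 later days at once, 6 of 9 member probes differed among days (limma F test), where 27.0% of all probes did. These were Blvrb (adjusted p = 1.37e-04), Ppox (4.39e-04), Urod (0.00104), both Fech probes (0.00408 for the second and 0.0204 for the first) and Uros (0.0424). Alad (0.0586), Cpox (0.0636) and Hmox1 (0.165) did not pass. In the subtracted values 9 of 9 passed, where 53.1% of all probes did, with Hmox1 the weakest (limma adjusted p = 0.0188).

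The other genes of heme synthesis and transport changed in part. Of 15 listed, 12 were named on the array and kept. At day 25 against day 10, 5 were lower, 1 higher and 6 did not pass, with a median of -0.075. Of all probes 13.8% were lower and 17.7% higher. Centred on the E1A probes 9 of 12 were higher and 0 lower, with a median of 0.995, where 95.7% of all probes were higher. Among the 5 lower in the main values, the mitochondrial carrier Slc25a39 changed by -1.10, the heme-binding Hebp1 by -1.13, the glycine carrier Slc25a38 by -0.46 and the porphyrin exporter Abcg2 by -0.27. Pgrmc1, a heme-binding membrane protein, was higher by 0.25. Alas1, the synthase of other tissues, was at 0.23 and did not pass (limma adjusted p = 0.0922). Against day 0, Slc25a39 was the 1 gene called at day 10 (0.89) and at day 15 (0.69). Of all probes 4.08% and 2.03% were higher on those days. At days 20 and 25, 0 of 12 were called in limma, with 5 and 2 at an unadjusted p under 0.05. The subtracted values called 4 higher and 2 lower at day 10 and 4 higher and 3 lower at day 15. They called 2 higher and 3 lower at day 20 and 1 lower at day 25. In them 3074, 3449 and 979 of 20920 probes were higher at days 10, 15 and 20. Those lower were 3872, 3750 and 1501 on these days and 659 at day 25.

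Among 14 listed genes of further breakdown, scavenging and sensing, 12 were kept. At day 25 against day 10, 7 were lower and 0 higher, with a median of -0.33, where 13.8% of all probes were lower. Centred on the E1A probes 8 of 12 were higher and 0 lower, with a median of 0.74, where 95.7% of all probes were higher. The ferritin chains, which store iron, were among the 7 that were lower in the main values, Ftl1 at -1.13 and Fth1 at -0.70. So were Gclm of glutathione synthesis (-1.12), the quinone reductase Nqo1 (-0.71), the heme-regulated kinase Eif2ak1 (-0.48) and the small Maf factors Mafg (-0.43) and Mafk (-0.23). Hmox2, the constitutive heme oxygenase, and Blvra, the main biliverdin reductase, did not pass (0.12 and 0.17). Against day 0 the haemoglobin-binding Hp was lower by 1.29 at day 10, 1.05 at day 15 and 1.30 at day 20. Nfe2l2, an activator of Hmox1, changed by -0.24, -0.40 and -0.39 on those days, and Hmox2 by -0.27 at day 10 and -0.24 at day 15. Ftl1 was higher at day 10 (0.92) and day 15 (0.79), and Nqo1 at day 10 (0.39). None of the 12 passed at day 25 against day 0 in limma, with 6 lower at an unadjusted p under 0.05, where 9.81% of all probes were. With the background subtracted 1, Hp, was lower, where 3.15% of all probes were.

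**Figure D4:**
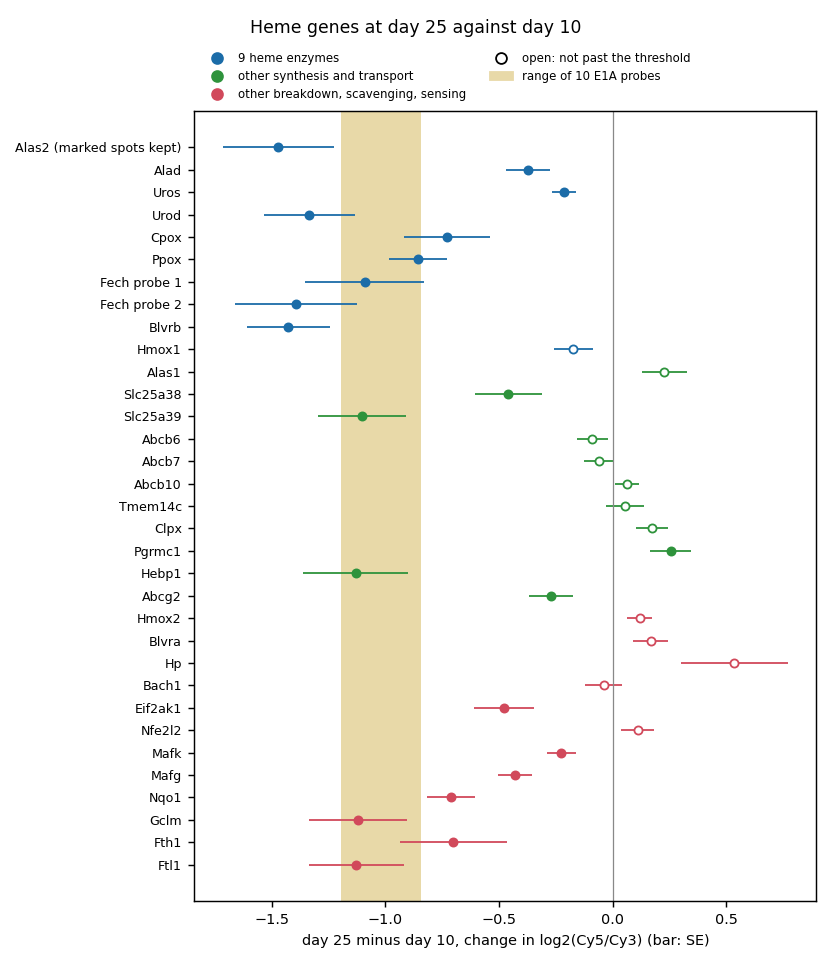
Change in log2(Cy5/Cy3) at day 25 against day 10, with SE bars, of the 10 member probes and of other heme genes kept, filled where the limma adjusted p was under 0.05. The member synthesis enzymes, Blvrb, Hebp1 and ferritin genes lie to the left of 0, and Alas1, Pgrmc1, Hmox2 and Blvra to the right. The band is the range of the 10 E1A spike-in probes.

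Red cell markers moved beside the enzymes. In whole blood, fewer cells of a type and less RNA per cell cannot be told apart. Of 23 erythroid markers kept, 20 were lower and 0 higher at day 25 than at day 10, with a median of -1.21. Of all probes 13.8% were lower and 17.7% higher. Trim10 changed by -1.90, Slc4a1, the anion exchanger of red cells, by -1.90 and Hba-a1, of alpha globin, by -1.02. The globin probes are uncertain between near-identical copies. The erythroid mean per array was -0.49 to -0.087 at day 25, against 0.64 to 0.83 at day 10 and -0.12 to 0.73 at day 0. Against day 0, 4 of 23 were higher at day 10 and 2 at day 15, where 4.08% and 2.03% of all probes were. At days 20 and 25, 0 were called in limma. At an unadjusted p under 0.05, 2 were higher and 1 lower at day 20 and 15 were lower at day 25. Of all probes 9.75% were higher at day 20 and 9.81% lower at day 25 by that rule. The subtracted values called 13, 13 and 1 higher at days 10, 15 and 20 and 12 lower at day 25. In them 14.7%, 16.5% and 4.68% of all probes were higher and 3.15% lower. Centred on the E1A probes, 9 were higher and 8 lower at day 25 than at day 10, where 95.7% of all probes were higher and 0.411% lower. The part of red cell number in the changes of the enzymes was not tested.

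Markers of white cells and platelets were counted likewise, beside 17.7% of all probes higher and 13.8% lower at day 25 against day 10. At day 25 against day 10 the neutrophil list had 1 of 9 higher and 0 lower, the monocyte and macrophage list 1 of 8 higher, the B cell list 2 of 6 higher and the T cell list 4 of 7 higher, with 0 lower in each, and the platelet list 2 of 4 lower and 0 higher. Centred on the E1A probes 9 of 9 neutrophil, 8 of 8 monocyte and macrophage, 6 of 6 B cell, 6 of 7 T cell and 3 of 4 platelet markers were higher and 0 lower. The platelet list thus turned with this centring, where 95.7% of all probes were higher and the median of all probes was 1.10. Against day 0, neutrophil markers were lower in 6 of 9 at day 10, 5 at day 15, 6 at day 20 and 2 at day 25. The neutrophil mean per array was -0.11 to 0.30 at day 10, against 0.48 to 0.92 at day 0. T cell markers were lower in 2 of 7 at day 10 and in 4 at day 15, and monocyte and macrophage markers in 2 of 8 at day 15. Of all 20920 probes, 1489 were lower at day 10, 803 at day 15, 415 at day 20 and 23 at day 25. The other counts of these lists against day 0 were 0 in limma, with up to 4 of a list at an unadjusted p under 0.05 and up to 3 called with the background subtracted. Their part in the changes of the enzymes was not tested.

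The pattern of the members over the 20 arrays was compared with 20504 probes of other genes measured on every array, as a description of arrays that share slides and spike-in shifts. Among those most like the mean of the 6 kept synthesis genes were Ppm1b (r = 0.97), 5430401H09Rik (0.97), Atp6v0d1 (0.96) and Selenbp1 (0.96). Most like Blvrb were Tfdp2 (r = 0.98), March5 (0.98), Prdx2 (0.97), Fbxo9 (0.97) and 1500003O03Rik (0.97). Hmox1 reached only r = 0.85 with the nearest probe, that of Aak1, followed by Bcat2 (0.84), Pik3r1 (0.83), an unnamed probe and Nfam1 (0.83). Among the members the closest pairs of different genes were Urod and Blvrb (r = 0.91) and Ppox and Blvrb (0.89), and Hmox1 and the second Fech probe were the least alike (0.24). In the subtracted values the nearest probes were of Hagh for Blvrb and Tnfaip2 for Hmox1.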

How the data were processed

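Whole-blood RNA of 4 mice at 5 days was hybridised on 20 two-colour Agilent arrays of 45018 spots. The authors deposited mean and local background intensity per spot in both channels, extracted with Agilent Feature Extraction 9.1.3.1 per the submitters' processing notes. The deposited log10 ratios were detrended and dye-normalized by that software, per the file headers, and the series table repeats them (900360 of 900360 values equal within 1e-06). In limma 3.58.1 (R 4.3.3), normexp with an offset of 50 used every spot, and a loess curve per array gave controls no weight. Spots marked non-uniform were dropped and spots of a probe averaged. Probes well above background in Cy5 on 4 or more arrays, with 3 or more values on each day, were tested with lmFit and eBayes over day means, two-sided. The script was tested on simulated data. As a check of pairing, deviations of the same mouse correlated at a mean r of 0.0856 over 40 pairs of arrays, against -0.0291 over 120 other pairs. The same numbered animals were bled on all days, so the fit with the mouse as a block is given where it changes a call. Members, gene lists and rules were chosen with earlier results of these data known. The text names all members, every called gene of the other heme lists and the 5 probes most like the members, except items not reported here. Each day is 1 slide, and p-values measure the spread between 4 mice.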

Additional observations from a re-analysis of the deposited data

Results flagged for a closer look

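Of 45 groups of 4 arrays tested for a value far from the others, 2 stood out, where chance gives about 1 in 20. Alad in mouse 310 at day 25 had a log2 ratio of -0.0024, against -0.18 to -0.16 in the other mice of that day. Blvrb in mouse 315 at day 20 had a log2 ratio of 1.01, against 0.45 to 0.50 in the other mice of that day. Without mouse 310 of day 25 the call of Alad for day 25 against day 10 remained.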

How the results depend on the processing

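The counts of member probes called moved with the normalization, and the cause was not tested. The main counts, of 9 probes, were 2 higher at day 10, 1 higher at day 15, 0 at day 20 and 0 at day 25 against day 0, 8 lower for day 25 against day 10 and 6 over all days. With the median of each array in place of loess they were 1, which was lower, 0, 0, 0, 0 and 0. Of all 20920 probes, 9205 were lower at day 10 in that setting. Centring on the E1A probes gave 2 lower at day 10, 0 at day 15, 1 higher at day 25 and 3 higher for day 25 against day 10, where 20028 of all probes were higher and 86 lower. With that centring 18069 of all probes were lower at day 10 and 17285 higher at day 25 against day 0. Scaling between arrays gave 1 higher and 1 lower at day 10, 6 higher at day 15, 1 lower at day 25 and 2 lower for day 25 against day 10. With that scaling 1509 of all probes were higher and 2281 lower at day 10, and 2931 were higher at day 15. Those lower were 303 at day 25 against day 0 and 2328 for day 25 against day 10. In the settings that follow, calls at days 10, 15 and 20 were higher and those at day 25 lower unless said otherwise. Without background correction 6, 3, 1 and 3 were called at days 10, 15, 20 and 25, and with the ratios of the scanner software 4, 3, 1 and 2. Of all probes 3258, 3464 and 1200 were higher at days 10, 15 and 20 without correction, and 1655 were lower at day 25. With the software's ratios 2335, 3210 and 721 were higher and 704 lower on those days. Cy5 taken alone gave 3 at day 10, 2 at day 15, 1 at day 20 and 3 at day 25. In it 1666, 3716 and 2031 of all probes were higher at days 10, 15 and 20, and 1057 were lower at day 25. For day 25 against day 10, 9 were lower without background correction, 7 with the software's ratios and 6 with Cy5 alone. Of all probes 4105, 3912 and 2102 were lower in these settings. Without the filter on dim probes 1 was called at day 10, and with marked spots kept, or the brightest probe of each gene, 2 at day 15. Without the filter 578 of 41142 probes were higher at day 10. At day 15, 427 of 20952 were higher with marked spots kept and 396 of 15235 with the brightest probes. With the mouse as a replicate block, 3 were called at day 15, 2 at day 20 and 2 at day 25. In that fit 586 and 837 of all probes were higher at days 15 and 20, and 224 were lower at day 25. At day 10 the block added the second Fech probe and changed no other call of that day. Settings chosen after seeing the data were background subtraction alone, with array medians and with E1A centring. Alone it gave 6, 4, 1 and 3 at days 10, 15, 20 and 25, where 3074, 3449 and 979 of all probes were higher and 659 lower. With array medians 8 were lower on each of those days, where 14930, 14800, 15211 and 9014 of all probes were. That setting gave 5, 1 higher and 4 lower, for day 25 against day 10, where 11725 of all probes were higher and 1352 lower. With E1A centring 1 was lower at day 10, where 16472 of all probes were. At day 15, 1 was higher and 1 lower, where 473 and 14017 were. Then 1 was higher at day 25 and 3 for day 25 against day 10, where 14038 and 19587 were. Leaving out 1 array at a time gave 1 to 5 at day 10, 0 to 3 at day 15, 0 to 2 at day 20, 0 to 3 at day 25, 8 to 8 for day 25 against day 10 and 4 to 7 over all days, with the most at days 10, 15 and 20 without mouse 320 of day 0. At day 25, 3 were called without mouse 310 of day 25 and 2 without mouse 305 of day 0. Day 15 counts were 0 without mouse 305, 310 or 315 of day 0 or mouse 315 or 320 of day 15, and 2 without mouse 305 of day 15 or of day 20. The day 20 count was 1 without mouse 305 of day 20. The calls over all probes, in either direction, moved too. They were 846 to 3335 at day 10, 647 to 1720 at day 15 and 105 to 3345 at day 20. At day 25 they were 1 to 2273, and 4803 to 7913 for day 25 against day 10. The 2273 came without mouse 310 of day 25, against 31 with all arrays. The 3345 came without mouse 305 of day 20, against 607. In the subtracted values, leaving out 1 array gave 3 to 7 member probes at day 10 and 3 to 7 at day 15. It gave 0 to 3 at day 20, with 1 of 2 lower without mouse 310 of day 20. At day 25 it gave 0 to 6, and 8 for day 25 against day 10.

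Many log2 changes turned their sign. With array medians all 9 member probes were below 0 at day 10 (-1.13 to -0.047), day 15 (-1.09 to -0.077) and day 20 (-0.88 to -0.054), and Hmox1 was at 0.47 for day 25 against day 10. Of the 34 changes not called in the main values, 20 turned with array medians, 17 with E1A centring, and 19 each when background subtraction was added to either. The values that follow are limited to changes called in the main values or under the alternative. For day 25 against day 10 these were, with array medians, Alad 0.44, Cpox 0.11, Ppox 0.24 and Fech probe 1 0.076, with E1A centring Alad 0.70, Uros 0.86, Cpox 0.34, Ppox 0.21 and Hmox1 0.90, in the Cy5 channel alone Fech probe 1 0.15, with background subtraction and array medians Alad 0.26 and Hmox1 0.41, and with background subtraction and E1A centring Alad 0.61, Uros 0.69, Cpox 0.044, Ppox 0.072, Fech probe 1 0.26 and Hmox1 0.93. At day 25 against day 0, Uros was at 0.42 with E1A centring and 0.45 with background subtraction added. At day 10 they were Ppox -0.59 and Blvrb -0.93 with array medians, Uros -0.43 with E1A centring, Blvrb -0.26 in the Cy5 channel alone, and Alad -0.88, Urod -1.06, Cpox -1.002, Ppox -0.72, Fech probe 1 -1.31, Fech probe 2 -0.98 and Blvrb -1.09 with background subtraction and array medians. The same last setting gave Alad -1.04, Urod -1.48, Ppox -0.69, Fech probe 1 -1.45, Fech probe 2 -1.23 and Blvrb -1.12 at day 15 and Alad -1.13, Urod -1.68, Ppox -0.998, Fech probe 1 -1.65, Fech probe 2 -1.38 and Blvrb -1.23 at day 20. Array medians gave Blvrb -0.71 at day 15, and they put Alas2, with its marked spots kept, at -0.65 at day 10 and -0.68 at day 15. The number of arrays, and for Uros, Hmox1, Alad and Cpox the signal left by the background correction, limit the precision.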
